A study of Homo sapiens with 6 samples.

Results

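Expressed ribosomal protein pseudogenes were examined in MM.1S cells with and without knockdown of PRMT1. The genes were selected on their measured level: a table row was kept when its biotype ended in processed_pseudogene, its symbol was that of a ribosomal protein pseudogene such as RPL29P11 or RPS28P7, and its mean over the 6 libraries was at least 1 FPKM (a read level scaled for gene length and library size, which puts genes of different length on one scale). Of 58735 genes in the table, 1144 matched by biotype and symbol, and 95 of them passed the limit. Another 656 were listed at 0 in every library and 393 were above 0 but under the limit. Of the 95, 87 were annotated as processed pseudogenes and 6 as transcribed processed pseudogenes. The remaining 2, RPL23AP82 and RPL32P3, were annotated as transcribed unprocessed pseudogenes and matched because that biotype ends in the same words. The 95 genes pointed by symbol to 51 parent genes, 32 encoding proteins of the large ribosomal subunit (58 pseudogenes) and 19 encoding proteins of the small subunit (37 pseudogenes).

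A processed pseudogene is a copy of a messenger RNA that was reverse transcribed and inserted back into the genome, so it carries the parent's exons joined without introns and usually lacks the parent's promoter. The genes for ribosomal proteins are short and strongly transcribed in every cell, and they have left more such copies in the human genome than other gene families. Because a young copy can match its parent nearly base for base, a short read from the messenger RNA may align to the copy equally well, and the value listed for a pseudogene may hold reads of its parent. Plasma cells and myeloma cells, which secrete antibody protein, depend on high ribosome output.

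MM.1S is a cell line from a human myeloma, a cancer of plasma cells. Bulk RNA-seq was performed on 3 control libraries and 3 libraries of PRMT1 knockdown (PRMT1 KD); per the study's methods, cells received negative control or PRMT1 siRNA at 100 nM and RNA was taken at 72 h. Which PRMT1 siRNA was used is not given in the sources used here. The methods call replicates dependent and nothing says that the 3 libraries of a group came from separate cultures, so p-values measure only the spread between these libraries, which may be technical. PRMT1 itself stood at 61.7, 62.8 and 58.9 FPKM in the control libraries and at 13.3, 14.0 and 12.5 FPKM after PRMT1 KD, 21.7% of the control mean (log2 fold change -2.13, SE 0.06, limma adjusted p = 2.77e-05). The libraries held 14439217 to 16465026 reads on genes. Plasma cell genes were present (TNFRSF17 at 255 to 318 FPKM, IRF4 at 115 to 118 FPKM), while the monocyte, erythroid and B cell markers CD14, HBB and MS4A1 were at or near 0. The B cell marker PAX5 was at 0.781 to 1.30 FPKM and the epithelial marker KRT8 at 19.5 to 23.1 FPKM. Against the label, MAF was listed at 0 in every library, and the T cell gene CD3E stood at 32.1 to 39.0 FPKM while CD2 was at or near 0. In such bulk samples, fewer cells with a transcript and less transcript per cell cannot be told apart.

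The sequences of the 2 most abundant pseudogenes and of the 3 past the test threshold described further on show how much a read can tell a copy from its parent. They were taken from the GENCODE release 29 transcripts (GRCh38), in which all 146 pseudogenes and parents were found at the coordinates of the table. Each line is a stretch of 120 bases, 5′ to 3′ on the gene's strand, inside the part that aligns to the parent's coding sequence. Of the stretches aligned without a gap, the one with the most differences was taken, so other such stretches differ at as many bases or fewer. Bases in capitals differ between a pseudogene and its parent. RPS28P7 (chr11:82689559-82689678, plus strand), the pseudogene with the highest level, did not differ from RPS28 at any base of the stretch, so its line stands for both. RPL9P9 (chr15:82372523-82372642, minus strand) differed at 1 base from RPL9 (chr4:39456431-39457597, minus strand, across 2 exons). RPL29P11 (chr3:37016835-37016954, minus strand) differed at 2 bases from RPL29 (chr3:51994076-51995428, minus strand, across 3 exons). RPL35P1 (chr1:236981561-236981680, plus strand) differed at 8 bases from RPL35 (chr9:124857946-124858065, minus strand). RPL23AP7 (chr2:113612018-113612137, minus strand) differed at 13 bases from RPL23A (chr17:28720793-28722744, plus strand, across 2 exons).
RPS28P7: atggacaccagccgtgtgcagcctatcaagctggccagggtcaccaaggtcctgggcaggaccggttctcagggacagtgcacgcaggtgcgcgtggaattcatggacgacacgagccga
RPL9P9: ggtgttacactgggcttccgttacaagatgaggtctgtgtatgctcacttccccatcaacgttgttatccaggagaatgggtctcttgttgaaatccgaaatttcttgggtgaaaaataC
RPL9: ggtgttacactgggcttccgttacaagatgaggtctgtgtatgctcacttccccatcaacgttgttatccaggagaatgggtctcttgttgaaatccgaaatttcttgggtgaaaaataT
RPL29P11: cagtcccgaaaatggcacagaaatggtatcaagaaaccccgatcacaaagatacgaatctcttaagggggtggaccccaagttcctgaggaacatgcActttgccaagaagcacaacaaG
RPL29: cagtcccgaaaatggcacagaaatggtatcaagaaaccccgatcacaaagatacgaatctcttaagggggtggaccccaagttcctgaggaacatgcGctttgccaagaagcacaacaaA
RPL35P1: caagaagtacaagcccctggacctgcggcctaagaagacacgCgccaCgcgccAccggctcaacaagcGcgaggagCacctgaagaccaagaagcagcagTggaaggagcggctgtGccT
RPL35: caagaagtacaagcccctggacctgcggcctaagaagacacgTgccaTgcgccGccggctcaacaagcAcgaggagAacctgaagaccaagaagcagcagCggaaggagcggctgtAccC
RPL23AP7: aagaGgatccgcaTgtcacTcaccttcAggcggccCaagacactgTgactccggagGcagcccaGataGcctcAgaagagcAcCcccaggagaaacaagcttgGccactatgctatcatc
RPL23A: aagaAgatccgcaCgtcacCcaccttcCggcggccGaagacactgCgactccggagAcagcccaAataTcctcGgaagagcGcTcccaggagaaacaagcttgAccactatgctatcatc

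Over the whole aligned length, identity to the parent transcript ranged from 78.9% (RPS20P33) to 100% with a median of 97.7%, and 86 of the 95 pseudogenes covered at least 95% of the parent's coding sequence. RPS28P7, RPL39P3, RPL21P16, RPL22P1, RPL41P1 and RPL41P5 had no mismatch at all. RPL22P1 did differ from its parent by 7 gap bases, and only 350 of its 410 bases were aligned. RPL29P11 had 10 mismatches over 492 aligned bases and 12 gap bases, and RPL23AP7 had 36 mismatches over 466 aligned bases and 8 gap bases. For RPS28P7, RPL39P3 and RPL21P16, every window of 100 bases also occurred in the parent. At the other end, 38 of the 93 pseudogenes long enough to hold a window of 100 bases shared no such window with their parent. The copies were spread over 22 chromosomes.

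The highest levels belonged to near-identical copies, and 3 of them were listed far above their own parents in FPKM, though not all in reads. RPS28P7, a copy of the gene for a small protein at the mRNA exit of the 40S subunit, stood at 1560, 1550 and 1390 FPKM in the control libraries and 1470, 1560 and 1430 FPKM after PRMT1 KD, a mean 7.49 times that of RPS28 (199 FPKM). RPL9P9, a copy of the large subunit protein gene RPL9, stood at 956, 948 and 947 FPKM in the control libraries and 827, 953 and 962 FPKM after PRMT1 KD, 9.19 times the mean of RPL9 (101 FPKM). RPL39P3, a copy of the gene for one of the smallest large subunit proteins, stood at 897, 823 and 748 FPKM in the control libraries and 595, 691 and 631 FPKM after PRMT1 KD, 3.36 times the mean of RPL39 (218 FPKM). The libraries of the groups overlapped for RPS28P7 and RPL9P9, and did not overlap for RPL39P3. In reads, RPL9P9 had the most, with a mean of 10610 a library beside 8090.5 for RPL9. RPS28P7 and RPL39P3 had fewer reads than their parents, at 42.6% and 19.7% of the joint reads of copy and parent. FPKM is scaled for gene length, so at equal reads the shorter gene has the higher FPKM. The 3 pseudogenes with the most reads held 40.3% of all reads on the 95. A further 5 pseudogenes were listed above their parents in FPKM: RPS7P1 (144 against 126 FPKM), RPL22P1 (66.8 against 34.2 FPKM) and 3 copies of RPS10, whose parent was listed at only 1.60 FPKM. In reads, RPS7P1 and RPL22P1 were below their parents. The 3 selected RPS7 copies held 13.9% of the joint reads of copies and parent, and the 3 RPL22 copies 15.2%. The 4 selected RPS10 copies held 73.7% of theirs.

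**Figure D1:**
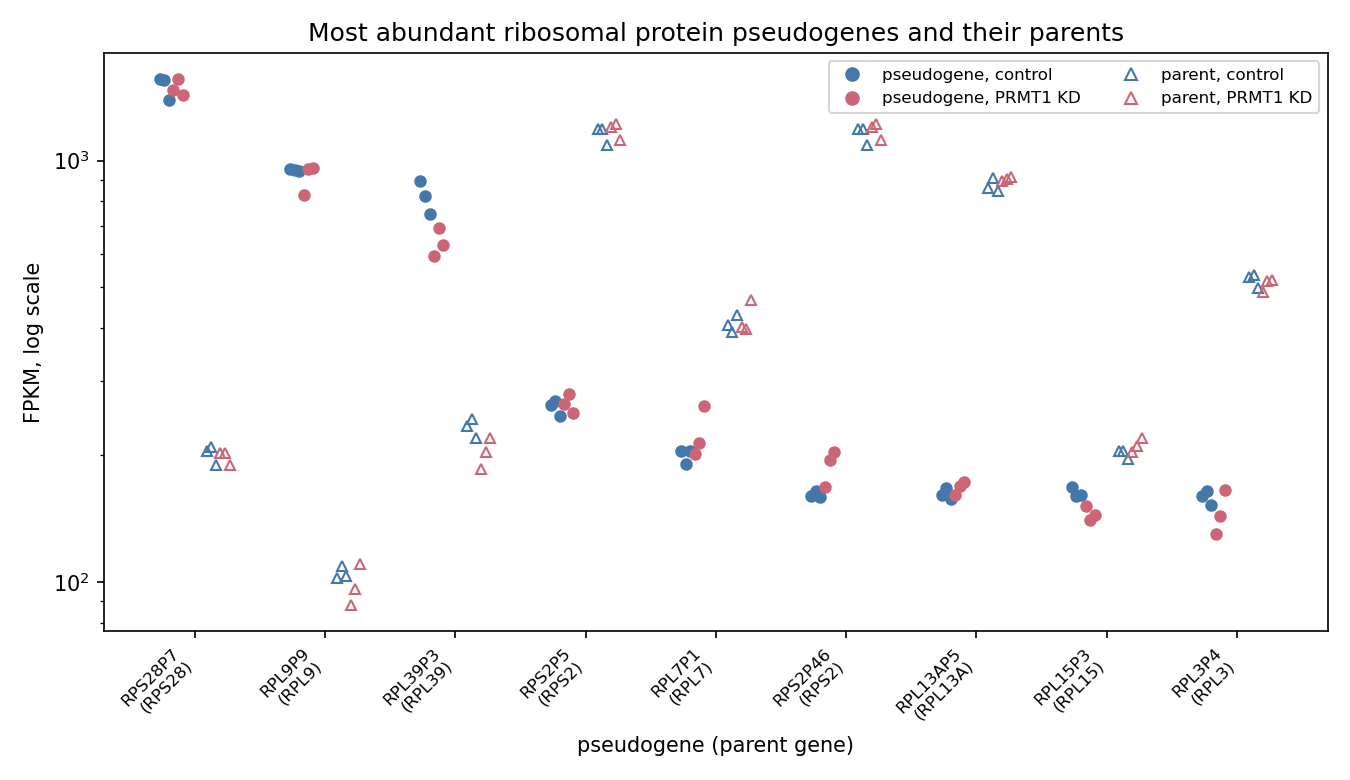
FPKM (log scale) of 9 of the 10 most abundant ribosomal protein pseudogenes (filled circles) and their parents (open triangles), 1 point a library, control in blue and PRMT1 KD in red. RPS28P7, RPL9P9 and RPL39P3 lie above their parents in all 6 libraries, and the other 6 lie below theirs.

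Among the next pseudogenes by level, 6 are described here, all below their parents, at 262 FPKM for RPS2P5 down to 153 FPKM for RPL3P4. They were copies of RPS2 (RPS2P5 and RPS2P46), RPL7 (RPL7P1), RPL13A (RPL13AP5), RPL15 (RPL15P3) and RPL3 (RPL3P4), the last encoding a large subunit protein near the site where peptide bonds form. Of these, RPL15P3 came closest to its parent, with 154 FPKM against 206 FPKM, and RPS2P46 was furthest from it, with 175 FPKM against 1168 FPKM. Below these the levels dropped quickly: the median of the 95 was 5.38 FPKM, 60 pseudogenes had less than 0.1 times the parent's FPKM, and the median pseudogene had 3.75% of it. Of the 95, 47 averaged under 50 reads a library and 9 averaged under 10. Together the 95 took between 0.288% and 0.308% of the reads of a library, and between 5.48% and 5.66% of all reads that fell on either the pseudogenes or their 51 parents.

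Among the 95 selected pseudogenes, levels were higher in copies closer to their parent. The 25 copies with at least 99% identity had a median of 66.8 FPKM and stood at a median of 24.4% of the parent. The 40 copies from 95% to under 99% had a median of 5.06 FPKM and 3.55% of the parent, and the 30 below 95% had a median of 1.84 FPKM and 0.888% of the parent. Across the 95 genes Spearman's rho between identity and mean FPKM was 0.71, given as a description, since the points share libraries and in part the same parents. The 95 were also selected on this same mean FPKM. Identity was not computed for the copies under the limit, so the relation is described for the selected copies only. The part that reads of the parent have in these levels was not tested, because the deposited values keep no alignments and the handling of reads that match several places is not given in the sources used here.

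**Figure D2:**
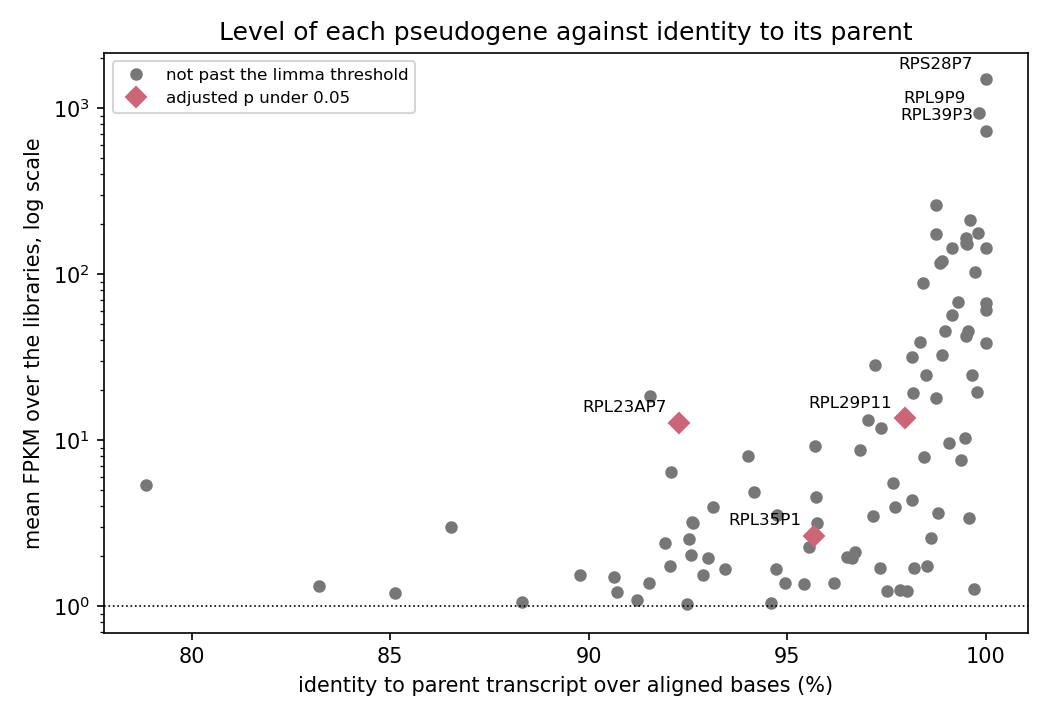
Mean FPKM over the 6 libraries (log scale) against identity to the parent transcript (%), 1 point for each of the 95 pseudogenes, with the 3 past the limma threshold as red diamonds and the selection limit of 1 FPKM dotted. Levels above 100 FPKM appear only at identities of at least 98.7%.

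Whether silencing PRMT1 changed the pseudogenes was asked with limma on log2(FPKM + 1), fitted across all 13585 genes with a mean of at least 1 FPKM. RPL29P11 rose, and RPL23AP7 and RPL35P1 fell, after PRMT1 KD. These 3 of 95 (3.16%) compare with 279 of 13585 genes (2.05%) called at an adjusted p under 0.05, of which 1.07% of the genes tested were higher and 0.986% lower. Of the 95 log2 fold changes, 47 were above 0 and 48 below, from -0.80 to 1.54, with a median of -0.0029 beside 0.0095 for all genes tested. At an unadjusted p under 0.05 there were 9 higher and 11 lower, 21.1% of the 95 beside 19.5% of all genes tested (1368 higher and 1287 lower). The 3 KD libraries lay wholly above the controls for 6 pseudogenes and wholly below for 11, together 17.9% of the 95 beside 25.9% of all genes tested. Those below include RPL24P2 and RPSAP9, which met the selection limit only through their control level. Of the 95, 5 met the limit with a PRMT1 KD mean under 1 FPKM and 1 with a control mean under 1 FPKM. Among copies of large subunit genes, 3 of 58 were called and the median log2 fold change was -0.026, and among copies of small subunit genes none of 37 was called and the median was 0.011. None of the 51 parents was called (11 at an unadjusted p under 0.05, 21.6% of them, 2 higher and 9 lower), with log2 fold changes from -0.33 to 0.23.

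RPL29P11 had the largest increase. It lies on chromosome 3 (chr3:37016523-37017014, minus strand, GRCh38) and copies RPL29, the gene for a large subunit protein. It stood at 5.65, 5.17 and 8.86 FPKM in the control libraries and at 21.8, 18.9 and 21.1 FPKM after PRMT1 KD, from 46, 41 and 72 reads and from 177, 134 and 158 reads. Every KD library was above every control library. The mean was 6.56 ± 2.01 FPKM in control and 20.6 ± 1.5 FPKM after PRMT1 KD (SD, n = 3 each), and the log2 fold change was 1.54 (SE 0.17, limma adjusted p = 0.0161). RPL29 stood at 481, 483 and 437 FPKM in control and 427, 441 and 442 FPKM after PRMT1 KD (log2 fold change -0.10, SE 0.05, limma adjusted p = 0.354). The difference between pseudogene and parent in log2(FPKM + 1) was -5.98 ± 0.44 in control and -4.34 ± 0.12 after PRMT1 KD (SD, n = 3 each), a shift of 1.64 with an exact two-sided permutation p of 0.1, the smallest that 3 against 3 libraries allow. The adjusted p of RPL29P11 was between 0.0633 and 0.0960 when any of 5 libraries was left out and 0.00458 without control replicate 3.

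For other RPL29 copies, the log2 fold changes given here were smaller. RPL29P24, the other selected copy, had 5 to 11 reads a library and its log2 fold change was -0.19 (limma adjusted p = 0.559). RPL29P11 shares 21.4% of its windows of 100 bases with RPL29P12, 19.1% with RPL29, 10.4% with AC018475.1 and 9.16% with AL450405.1. Apart from the parent RPL29, these are copies outside the selection, RPL29P12 by level and the clone-named ones by symbol. The copies outside the selection are named here after their values were seen. RPL29P12 stood at 0.647, 0.664 and 1.43 FPKM in control and 1.04, 0.892 and 0.281 FPKM after PRMT1 KD, with overlap, and AC018475.1 averaged 0.158 FPKM. AC006480.1, a clone-named RPL29 copy at 1.34 FPKM, had groups that overlapped and its log2 fold change was 0.05. AL450405.1, on chromosome 6, stood at 103, 126 and 118 FPKM in control and 148, 155 and 180 FPKM after PRMT1 KD, without overlap. Its log2 fold change was 0.47 (SE 0.10), which did not pass the threshold (limma adjusted p = 0.0652). Copies and parent together, RPL29 and its 2 selected copies, had 0.393% ± 0.123 of their reads on the copies in control and 1.16% ± 0.106 after PRMT1 KD (exact permutation p = 0.1, the smallest possible here), while the sum of their reads had a log2 fold change of -0.087.

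RPL23AP7, on chromosome 2 (chr2:113610502-113627090, minus strand), fell after PRMT1 KD. It is annotated as a transcribed processed pseudogene of RPL23A, whose protein lies at the peptide exit of the large subunit. It stood at 15.0, 15.9 and 16.9 FPKM in control and at 9.73, 9.92 and 8.88 FPKM after PRMT1 KD, from 528, 545 and 594 reads and from 342, 304 and 288 reads. The groups did not overlap, and the log2 fold change was -0.69 (SE 0.07, limma adjusted p = 0.0122). RPL23A stood at 204, 191 and 212 FPKM in control and 202, 210 and 248 FPKM after PRMT1 KD (log2 fold change 0.12, limma adjusted p = 0.494), and the difference from the parent shifted by -0.80 (exact two-sided permutation p = 0.1, the smallest possible). The locus is longer than the copied sequence: its 3 transcripts cover 2128 exon bases, of which 466 (21.9%) align to RPL23A with 92.3% identity, and none of its windows of 100 bases occurs in RPL23A. It shares 33.1% of them with RPL23AP82 on chromosome 22 and 35.4% with CENPBD1P1. RPL23AP82 stood at 1.68, 2.45 and 1.96 FPKM in control and 1.67, 1.32 and 1.33 FPKM after PRMT1 KD without overlap (log2 fold change -0.31, limma adjusted p = 0.248), and CENPBD1P1 was at log2 fold change 0.02 (limma adjusted p = 0.88). The adjusted p of RPL23AP7 was 0.0511 without control replicate 1, 0.0644 without control replicate 2 and 0.0505 without PRMT1 KD replicate 2.

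RPL35P1, on chromosome 1 (chr1:236981339-236981708, plus strand), fell as well, on few reads. It copies RPL35, another protein at the peptide exit. It stood at 3.75, 3.52 and 3.60 FPKM in control, from 23, 21 and 22 reads, and at 2.13, 1.69 and 1.24 FPKM after PRMT1 KD, from 13, 9 and 7 reads. The groups did not overlap, and the log2 fold change was -0.80 (SE 0.13, limma adjusted p = 0.0390). RPL35 stood at 534, 542 and 480 FPKM in control and at 483, 470 and 436 FPKM after PRMT1 KD (log2 fold change -0.16, limma adjusted p = 0.226). The difference from the parent shifted by -0.63 (exact two-sided permutation p = 0.1, the smallest possible). With 16 mismatches over 370 aligned bases, none of its windows of 100 bases occurs in RPL35, and 26.2% of its windows of 50 bases do. The call did not pass when any library was left out (adjusted p from 0.0560 to 0.163), nor with limma-voom on the reads (adjusted p = 0.0969).

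**Figure D3:**
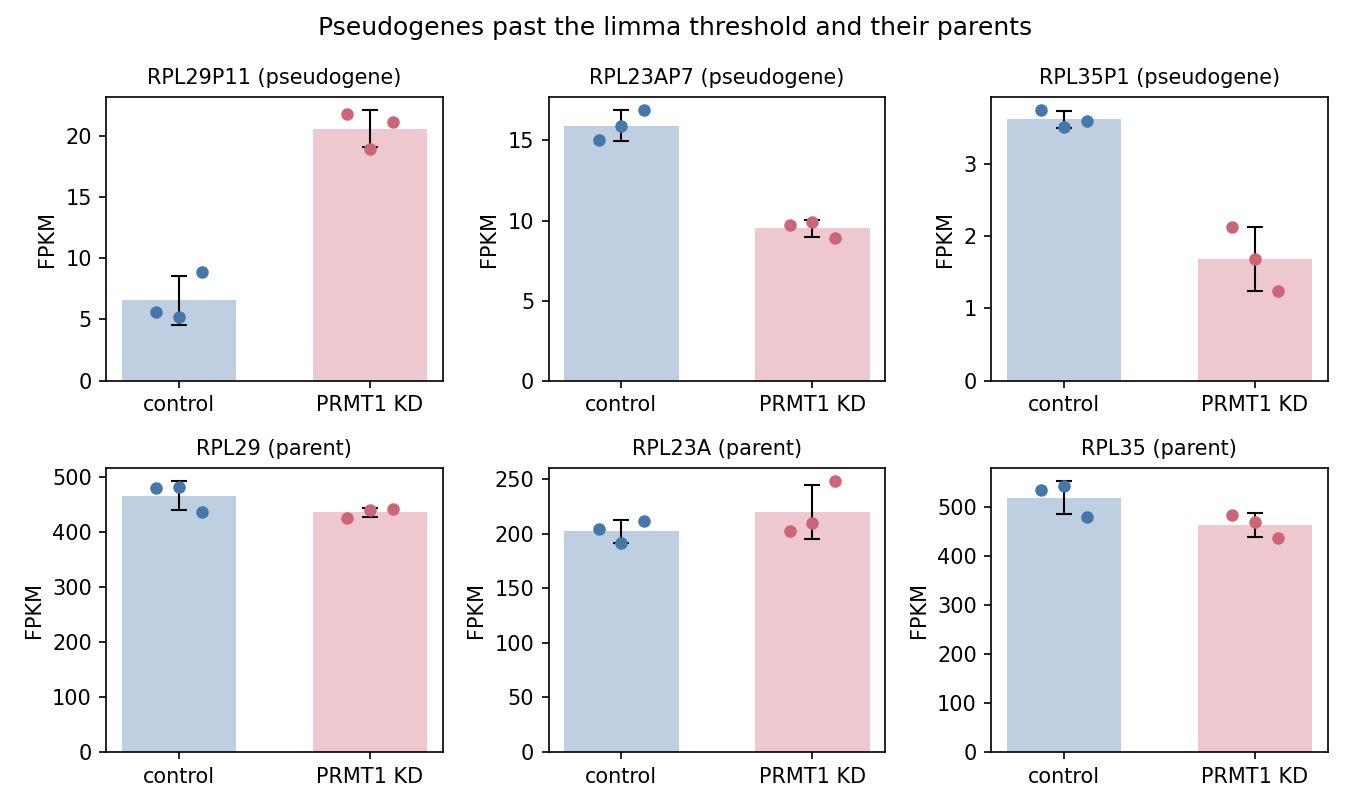
FPKM of RPL29P11, RPL23AP7 and RPL35P1 (top row) and of their parents (bottom row), with bars for the mean of 3 libraries, error bars for the SD and 1 point a library. The groups do not overlap for the pseudogenes, at 5.17 to 8.86 against 18.9 to 21.8 FPKM for RPL29P11.

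RPL39P3, the third most abundant pseudogene, had a log2 fold change of -0.36 (SE 0.08) that did not pass the threshold (limma adjusted p = 0.0796). It passed with limma-voom on the reads (adjusted p = 0.00896) and when only genes with a mean of at least 5 FPKM were tested (adjusted p = 0.0375). Its parent RPL39 stood at 234, 243 and 220 FPKM in control and 185, 203 and 219 FPKM after PRMT1 KD (log2 fold change -0.20, limma adjusted p = 0.179). Copy and parent are identical over the copy's whole length, and the difference between them shifted by -0.16 (exact permutation p = 0.3). RPL15P3 stood at 168, 160 and 161 FPKM in control and 151, 140 and 144 FPKM after PRMT1 KD, while RPL15 stood at 204, 204 and 196 and then 203, 210 and 220 FPKM. Its log2 fold change was -0.17 (limma adjusted p = 0.104), and the difference from RPL15 shifted by -0.24 without overlap (exact permutation p = 0.1). RPS2P46 stood at 160, 164 and 159 FPKM in control and 168, 195 and 203 FPKM after PRMT1 KD, without overlap (log2 fold change 0.22, limma adjusted p = 0.156), beside 0.02 for RPS2P5 and 0.03 for their shared parent RPS2. Other abundant copies had log2 fold changes of -0.01 for RPS28P7, -0.06 for RPL9P9, 0.17 for RPL7P1, 0.05 for RPL13AP5 and -0.13 for RPL3P4, and limma adjusted p from 0.39 to 0.937.

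After RPL29P11, the largest positive log2 fold changes were 0.56 for RPS24P8, 0.49 for RPS19P6, 0.48 for RPS6P25 and 0.42 for RPL37AP1, none past the threshold (limma adjusted p from 0.144 to 0.519). They rest on few reads: RPS24P8 had 8, 13 and 7 reads in control and 15, 13 and 19 after PRMT1 KD, and RPS19P6 had 17, 2 and 3 and then 8, 9 and 15. RPS24P8 did not overlap between groups in FPKM (1.20, 2.01 and 1.05 against 2.26, 2.25 and 3.10), and RPS19P6 did. After RPL35P1 and RPL23AP7, large negative values were -0.56 for RPL24P2 and -0.56 for RPSAP9 (limma adjusted p 0.109 and 0.0847). Both had a PRMT1 KD mean under 1 FPKM and so met the selection limit only through their control level. RPSAP9 stood at 1.43, 1.54 and 2.04 FPKM in control and 0.887, 0.782 and 0.739 FPKM after PRMT1 KD, while its parent RPSA, which encodes a small subunit protein, had a log2 fold change of 0.06. The groups overlapped for RPSA and did not overlap for RPSAP9 or RPL24P2. The median SE was 0.18 for the 47 pseudogenes under 50 reads a library and 0.087 for the other 48, beside 0.084 for all genes tested.

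**Figure D4:**
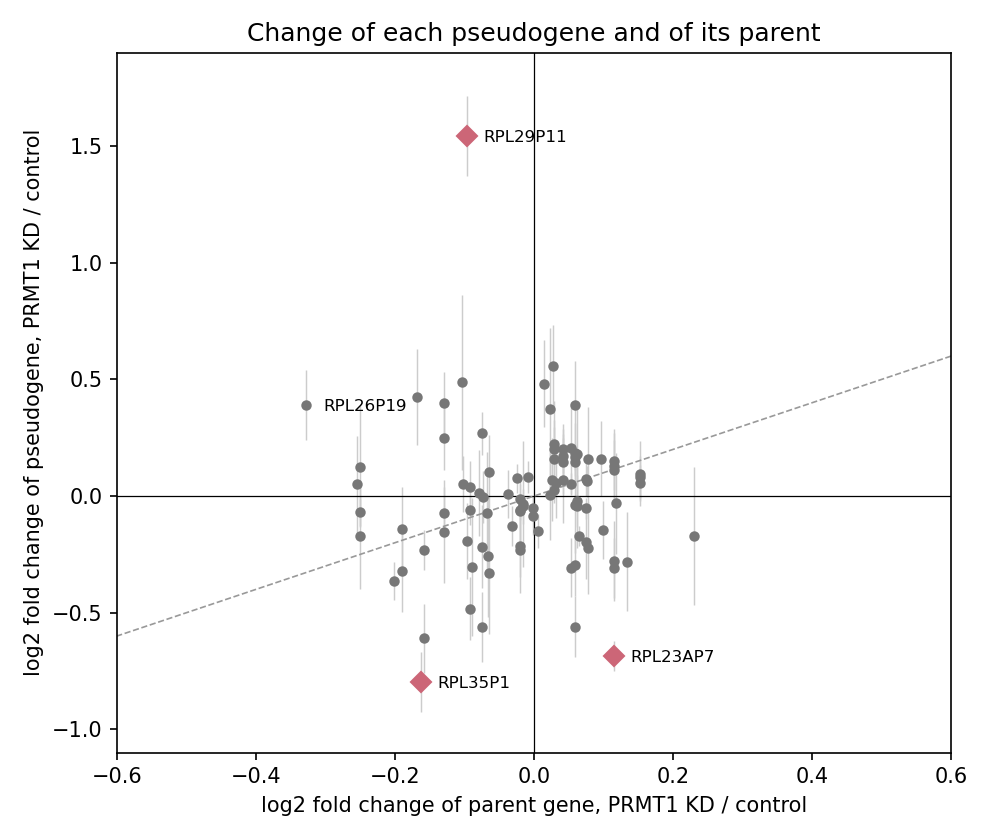
Log2 fold change of each of the 95 pseudogenes (vertical axis, bars for the SE) against that of its parent gene (horizontal axis), PRMT1 KD over control, with equal change dashed and the 3 past the limma threshold as red diamonds. The parents span -0.33 to 0.23, the pseudogenes -0.80 to 1.54.

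Each pseudogene was also set beside its own parent, library by library. The difference in log2(FPKM + 1) between pseudogene and parent shifted by a median of -0.0035 after PRMT1 KD, with quartiles of -0.15 and 0.12. The shift was above 0 in 45 pairs and below 0 in 50, and groups did not overlap in 17 of 95 pairs (17.9%), beside 15.1% of the 416 expressed processed pseudogenes of any family whose symbol names a tested parent. The 416 take in copies among the 95, so the 2 shares are not independent. In the 25 copies with at least 99% identity the median size of the shift was 0.096, in those from 95% to under 99% it was 0.16, and in those below 95% it was 0.12. RPL26P19, singled out after its values were seen, had a log2 fold change of 0.39 beside -0.33 for its parent. It stood at 20.3, 16.4 and 13.4 FPKM in control and 18.9, 22.8 and 24.3 FPKM after PRMT1 KD, while RPL26 stood at 34.6, 30.9 and 30.3 and then 24.9, 28.5 and 22.5 FPKM. The shift was 0.72 (exact permutation p = 0.1), neither gene passed on its own (limma adjusted p 0.219 and 0.121), and the copy's share of their joint reads was 8.30% ± 1.07 in control and 13.3% ± 2.25 after PRMT1 KD.

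At least 4 expressed copies each were found for 5 parents. RPSA had 7 copies, with log2 fold changes from -0.56 (RPSAP9) to 0.39 (RPSAP47) beside 0.06 for RPSA. RPL23A had 6, from -0.69 (RPL23AP7) to 0.15 (RPL23AP77) beside 0.12 for RPL23A. RPS10 had 4, from -0.15 (RPS10P5) to 0.40 (RPS10P3) beside -0.13 for RPS10, itself at 1.60 FPKM. RPL7 had 4, from 0.07 to 0.20 beside 0.04 for RPL7, and RPS3A had 4, from -0.23 to -0.06 beside -0.02 for RPS3A. Copies lay on both sides of 0 in the RPSA, RPL23A and RPS10 families, all above 0 for RPL7 and all below 0 for RPS3A. RPL23AP7 was the only one of these 25 copies past the threshold.

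**Figure D5:**
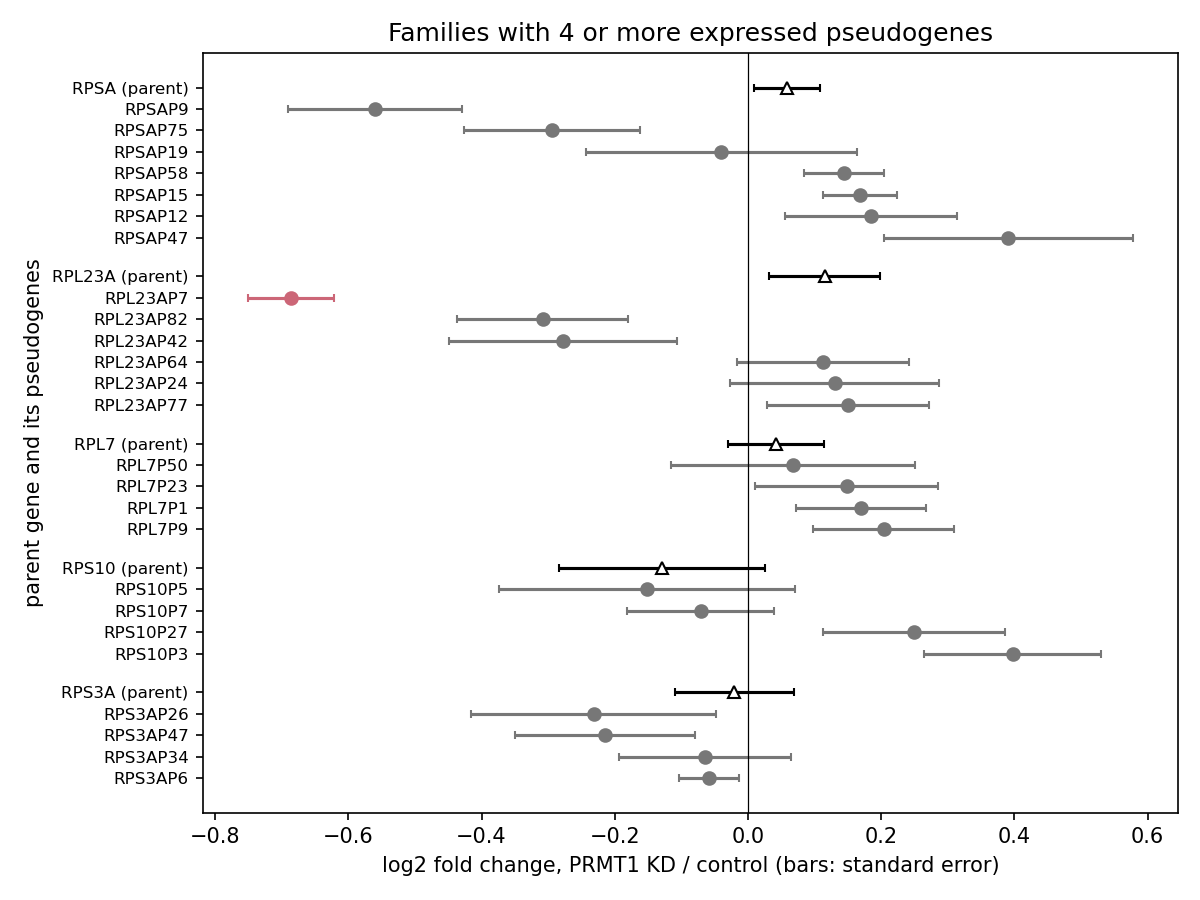
Log2 fold change (PRMT1 KD over control, bars for the SE) of the 5 parents with at least 4 expressed copies (open triangles) and of their copies (circles), with RPL23AP7, past the limma threshold, in red. Copies of RPSA run from -0.56 to 0.39 and copies of RPL23A from -0.69 to 0.15.

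Other genes of the same kind give the setting. Of 80 genes for cytosolic ribosomal proteins, 78 were tested and 1, RPL37, was called (log2 fold change -0.33, limma adjusted p = 0.0322); it has no copy among the 95. The median over the 78 was -0.027, with 32 above 0. Of 529 other expressed processed pseudogenes, 7 were called (1.32%), all higher, with a median of 0.040. The 529 are those outside the 95, so they include the clone-named copies of ribosomal protein genes described further on. Many copies lie inside other genes: 37 of the 95 overlap a tested gene, 13 on the same strand and 25 on the opposite strand, with 1 in both counts, and 4 have exon bases in an exon of that gene. Of the genes overlapped, AC139769.1, around RPSAP58, and DTL, around RPL21P28, were called (log2 fold changes 0.40 and 0.28), beside 0.14 and 0.10 for the pseudogenes inside them. The strand setting of the read counting is not given in the sources used here, so reads of both strands cannot be told apart at these loci.

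At the selection limit, the 3 pseudogenes just inside were RPL29P24 (1.03 FPKM), RPL5P4 (1.05 FPKM) and RPL31P52 (1.06 FPKM). The 3 just outside were RPL37P6 (0.995 FPKM), RPL7AP66 (0.961 FPKM) and RPS29P17 (0.953 FPKM). Of the 95, 89 had a mean of at least 1 FPKM in both groups, 1 passed with a control mean under 1 and 5 (RPL24P2, RPS27P21, RPSAP9, RPL9P29 and RPL29P24) passed with a PRMT1 KD mean under 1.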

How the data were processed

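RNA-seq was analysed for 3 control and 3 PRMT1 KD libraries of MM.1S cells, grouped by the labels. The authors deposited 1 table of FPKM values per gene and library. Per the submitters' processing notes, reads were counted with featureCounts 1.5.0-p3 on hg38. The aligner and the settings for multi-mapping reads and strand are not given in the sources used here. FPKM times the listed gene length gave whole multiples of 1 step in every library for 100% of values above 0 (within 0.01), so reads per gene were recovered. The implied library sizes equal median-of-ratios size factors, so the deposited FPKM already hold a scaling between libraries.

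Genes with a mean of at least 1 FPKM (13585) were tested with limma 3.58.1 in R 4.3.3 on log2(FPKM + 1), with an intensity trend and Benjamini-Hochberg adjustment over all genes tested, threshold 0.05. Fold changes are on that scale and understate the change of low genes. The fit was tested on simulated data. Each pseudogene was compared with the parent its symbol names by log2(FPKM + 1) differences per library and exact two-sided permutation tests. Transcripts of GENCODE 29 were aligned locally with Biopython 1.88, and windows of 50 and 100 bases were searched on both strands. Precision follows from reads: 47 of the 95 pseudogenes averaged under 50 reads a library.

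Genes named with values were those past the threshold, the 10 highest in level, the 5 largest and 5 smallest log2 fold changes, the 3 on each side of the limit, parents with at least 4 copies, the parents of named copies, and PRMT1. A few results under this rule are not reported here. Other genes are named as chosen after their values were seen, as were the sums of reads over a family and the clone-named copies. The members and lists were chosen with earlier results of these data known. Within a group, no libraries agreed within sampling noise (chi-square per degree of freedom 2.45 to 7.56). Replicate numbers were not used as pairs in the main fit. The deviations of equal numbers correlated at 0.02, 0.063 and 0.101, and those of unequal numbers at -0.075 to 0.019. With 3 libraries a group, these values cannot exclude a pairing. Alternatives were another pseudocount, other filters and scalings, no trend, limma-voom on reads, a replicate block and leaving out each library.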

Additional observations from a re-analysis of the deposited data

How the results depend on the processing

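The count of 3 called pseudogenes was 1 without the filter on low values, 20 at an unadjusted p under 0.05 (21.1%, beside 19.5% of all genes tested), and 0 to 2 when a library was left out (0 without control replicate 1, control replicate 2 or PRMT1 KD replicate 2). With a replicate block it was 2: RPL29P11 (adjusted p = 0.0437) and RPL23AP7 (0.0437) passed and RPL35P1 did not (0.0545). The block changed no other call among PRMT1, the copies reported for their level or size of change, and the parents of those copies. Calls of other genes, such as RPL37, AC139769.1 and DTL, are not given under the block. Directions of the 3 calls and of PRMT1 held under every alternative. RPL29P11 lost its call under 6 of 15, RPL23AP7 under 3 of 15 and RPL35P1 under 10 of 14. The median log2 fold change of the 95 ranged from -0.043 to 0.033, with its sign turning under quantile and TPM-like scaling among others. The median difference from the parent ranged from -0.016 to 0.0041, with its sign turning under another pseudocount, limma-voom and some left-out libraries. Both moved by less than the spread between libraries.

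Values near 0 changed sign, with the cause not tested. RPS28P7 was 0.12 under quantile normalization and 0.0063 rescaled like TPM, RPS2 -0.029 under quantile normalization and RPS6 -0.0044 scaled to library totals. With a library left out the ranges were -0.070 to 0.017 for RPS28P7, -0.098 to 0.011 for RPL9P9, -0.014 to 0.061 for RPS2P5, -0.030 to 0.082 for RPL7, -0.015 to 0.067 for RPS2, -0.062 to 0.10 for RPS24, -0.062 to 0.012 for RPS28 and -0.047 to 0.081 for RPS6. Depth limits 47 of the 95 pseudogenes, which averaged under 50 reads a library.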

Other observations

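Many copies of ribosomal protein genes carry clone names and so fell outside the selection by symbol. By the descriptions in the table, 74 such processed pseudogenes of 37 cytosolic ribosomal protein genes had a mean of at least 1 FPKM, and none was called by limma, beside 2.05% of all genes tested. At an unadjusted p under 0.05 there were 14 (18.9%, 11 higher and 3 lower), beside 19.5% of all genes tested. Their median log2 fold change was 0.048. They were chosen after values were seen. The highest was AC116533.1, a copy of RPL36A, at 507 FPKM while RPL36A was listed at 3.18 FPKM. AC024293.1, a copy of RPS10, stood at 104 FPKM while RPS10 was listed at 1.60 FPKM and the 4 selected RPS10 copies at 1.38 to 3.50 FPKM. BX679664.3, a copy of RPL17, stood at 65.9 FPKM beside 6.27 FPKM for RPL17. In all, 8 of the 74 were listed above their parent.

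Among the selected copies, RPL7AP6, singled out after its values were seen, stood at 48.0 FPKM in PRMT1 KD replicate 2 and at 15.6 to 23.7 FPKM in the other 5 libraries, while RPL7A stayed between 598 and 633 FPKM. RPL22P1 had no mismatch to RPL22 over the 350 of its 410 bases that were aligned, but had 7 gap bases. Its log2 fold change was -0.070, beside -0.25 for RPL22 (limma adjusted p = 0.0594).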
